A study of Pinctada fucata with 15 samples.

Results

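Trochophore stage larvae of the pearl oyster Pinctada fucata, collected 17 h after insemination, were compared with fertilized eggs of 0 h. Samples were chosen by their stage labels, which gave 3 trochophore pools and 3 egg pools, 6 of the 15 samples of the series. Each sample was a pool of whole animals from an ordinary culture with no treatment, hybridised to its own one-colour Agilent array of 58883 probes. Of these, 58583 were designed from a transcriptome of the adult mantle, the tissue that makes the shell, and 300 from GenBank sequences, so transcripts outside both sets were not measured. Of 38150 probes tested, 20251 (53.1%) were called different, 9926 (26.0%) higher and 10325 (27.1%) lower in trochophore larvae. Probes of the proteasome (KEGG), peroxisome (GO) and fatty acid (KEGG) lists were mostly lower in the larvae. The DNA replication list was mostly lower too, whereas the dorso-ventral axis list had more members higher than lower. The study chose all members of both these lists as changed on arrays used here. Single probes for a temptin, an amine oxidase and a polyubiquitin were bright in larvae and at background in eggs, while 2 other temptin probes fell. Single probes of the Hedgehog, Wnt and Notch lists rose more than 16-fold. The Wnt list had 11 higher and 9 lower of 27 tested, and Notch 5 higher and 13 lower of 23. Hedgehog had 9 higher and 5 lower of 17, but 3 higher and 4 lower of the 10 above background on all 6 arrays.

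A fertilized egg of a bivalve starts development with RNA and protein that the mother laid down in the oocyte. Much of this maternal RNA is degraded during cleavage while the genes of the embryo are turned on. The trochophore is the first free-swimming larva: it moves with a band of cilia, its body axes are set, and a shell gland forms that will secrete the first larval shell. The comparison of both stages therefore covers the passage from maternal to embryonic RNA in an animal whose later life is marked by shell formation.

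The other arrays of the series, used here only for levels at later ages, were D-shaped larvae at 48 h, umbonal larvae at 14 days and juveniles at 35 days, each in 3 pools. A spot was taken as measured where the scanner software marked it well above background, which held for 61.8 to 70.3% of probe spots in trochophore larvae and 53.3 to 65.6% in eggs. The means of 66.8% ± 4.43 in trochophore larvae and 60.0% ± 6.20 in eggs (SD, n = 3 each) did not pass an exact two-sided permutation test (p = 0.2, where 0.1 is the smallest that 3 against 3 allows). The arrays correlated at r = 0.974 to 0.987 among trochophore pools and 0.968 to 0.987 among egg pools over the tested probes, and at 0.652 to 0.690 between the stages. Egg replicate 1 stood apart at its dim end, where 18147 probes (30.8%) shared 1 signal, a normalized log2 value of 4.36 that recurs below. All 6 arrays lay on 1 slide, trochophore replicate 1 in the same row as the eggs and trochophore replicates 2 and 3 in the other row. With trochophore replicate 1 alone set against the eggs of its own row, 20185 probes were called, a fit in which the lone pool is assumed to vary like the pools of the other groups.

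Levels are given as normalized log2 signal, in which a difference of 1 is 2-fold, with quantile normalization between arrays. A probe was tested where all 3 arrays of at least 1 stage were well above background, and a call needed a change of at least 2-fold with limma's adjusted p (Benjamini-Hochberg) below 0.05. Changes are trochophore larvae minus eggs. The median change of all tested probes was -0.07. Scaling by the 8 spike-in control probes raised it to 0.42 and gave 14460 probes higher and 7424 lower, so 66.1% of calls were higher under that scaling and 49.0% under quantile normalization. All changes are thus relative to the bulk of the RNA on each array. In whole-animal pools, a change in the number of cells of a type cannot be told apart from a change in RNA per cell.

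Detection divided the changes into kinds that fold changes alone do not show. Switched-on probes, measured on all 3 trochophore arrays and on no egg array, numbered 3229, of which 3086 were called. Switched-off probes, measured on all 3 egg arrays and on no trochophore array, numbered 890, of which 889 were called. Thus more probes entered than left the measurable range between the egg and the trochophore, but that range differed between the arrays. The dimmest signal counted as above background was 7.45, 6.56 and 6.05 in egg replicates 1 to 3. In trochophore replicates 1 to 3 it was 5.86, 6.56 and 5.70. Its part in the excess of switched-on probes was not tested. Graded probes, measured on all 6 arrays, numbered 28423 and leaned lower under quantile normalization, with 4696 called higher and 7900 called lower. Under spike-in scaling that lean turned, with 7738 graded probes called higher and 5734 lower. The remaining 5608 tested probes were measured in part, with 2144 higher and 1536 lower. The pools of the stages did not overlap at 29911 (78.4%) of the tested probes.

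The dim egg array touches these counts. At 2420 of the 3086 switched-on calls, egg replicate 1 lay at its shared dim signal, and without that array 1586 probes were switched off and called, against 889 with it. The switched-on calls were 3098 without it. For a switched-off probe in that fit, only the remaining egg arrays had to be above background. The part of egg replicate 1 in the switched classes was not tested further. Of the probes left untested, 13594 were above background on none of the 6 arrays, and 7139 on some arrays but on all 3 of neither stage.

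**Figure D1:**
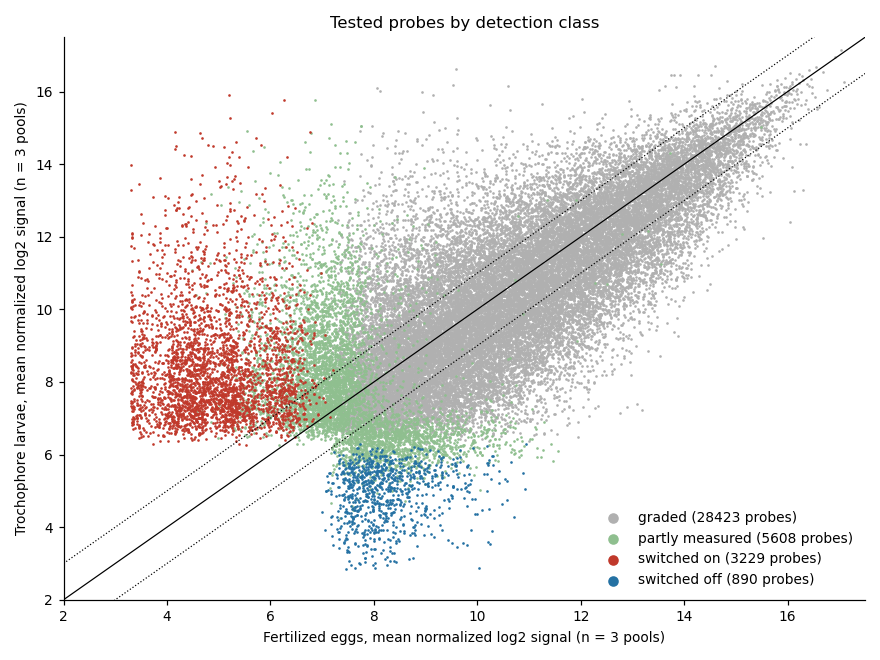
Mean normalized log2 signal of each of the 38150 tested probes, trochophore larvae on the vertical axis and fertilized eggs on the horizontal axis, each over 3 pools, with colours for the detection classes. The solid line marks equal signal and the dotted lines 2-fold; the 3229 switched-on probes stand at the left edge and the 890 switched-off probes at the lower edge.

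Under quantile normalization, large rises outnumbered large falls, although graded falls were the more frequent. Among graded probes, 4-fold changes were 1749 higher and 2683 lower, 8-fold changes 632 higher and 538 lower, and 32-fold changes 76 higher and 8 lower. No graded probe was 64-fold lower, and 24 were 64-fold higher. For switched probes the fold is a lower bound, set by the dimmest signal counted as above background on the dim arrays, and it has no upper limit. By that bound, 1149 switched-on and 479 switched-off probes changed by at least 4-fold, and 161 switched-on and 0 switched-off probes by at least 32-fold. The bound was at least 2-fold for 2024 switched-on probes and under 1 for 104, so the call of many dim switched-on probes rests on signal near background.

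The largest graded rises came from probes whose unigenes carry no protein match or term in the lists used here. CUST_51482 (Unigene51521) had 15.94, 16.26 and 16.10 in the trochophore pools, against 8.71, 7.64 and 7.81 in the egg pools. CUST_51472 (Unigene51511) had 15.92, 16.04 and 16.11 in trochophore larvae, against 8.61, 8.12 and 7.65 in eggs. Both were uniformly bright in the larvae, with a gap to the highest egg pool far wider than the spread within either stage. Their changes were 8.05 ± 0.25 and 7.90 ± 0.22 (SE), with limma's adjusted p of 2.7e-11 and 1.1e-11. CUST_50954, CUST_47976 and CUST_55979 rose by 7.19, 7.09 and 7.06.

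These unigenes parted ways after the trochophore. The signal of CUST_51482 was 13.66 in D-shaped larvae, 10.58 in umbonal larvae and 9.97 in juveniles. CUST_55979 stayed bright, at 15.90, 15.40 and 15.33 in the same 3 stages. CUST_47976 behaved likewise, at 14.73, 14.58 and 14.72. Hence some of the strongest rises marked a level kept to the juvenile, and others a level highest in the trochophore among the 5 stages.

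The switched-on probes with the highest bounds were likewise unnamed. CUST_36759 (Unigene36782) had 15.96, 15.83 and 15.89 in trochophore larvae, against 4.36, 5.85 and 5.40 in eggs, where no array was above background, and was at least 591-fold higher. CUST_45499 had 15.70, 15.73 and 15.85 in trochophore larvae, against 7.04, 5.93 and 5.81 in eggs, at least 538-fold. The larval pools of both lay close to each other. CUST_50895, CUST_33041 and CUST_29994 followed with bounds of at least 422-, 378- and 296-fold. The mean of CUST_36759 was 14.05, 8.63 and 7.07 in D-shaped larvae, umbonal larvae and juveniles, and that of CUST_29994 was 12.94, 7.41 and 5.43. All 5 had their highest mean of the 5 stages in the trochophore and declined at each later stage.

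Of the 5 largest graded falls, 2 were listed under KEGG nitrogen metabolism, a map of enzymes that handle ammonia and other small nitrogen compounds. CUST_44318 (Unigene44352) had 6.45, 8.52 and 6.73 in trochophore larvae, against 13.44, 13.16 and 12.98 in eggs. CUST_29646 (Unigene29667) had 6.62, 8.30 and 6.96 in trochophore larvae, against 12.94, 12.94 and 12.78 in eggs. In both, trochophore replicate 2 was the highest larval pool, and still far below every egg pool. CUST_44318 fell by 5.96 ± 0.40 and CUST_29646 by 5.59 ± 0.35 (SE, limma's adjusted p of 2.1e-08 and 1.0e-08). Without trochophore replicate 2 the change of CUST_44318 was -6.60. The signal of CUST_44318 in D-shaped and umbonal larvae was again higher, at 10.04 and 11.17.

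CUST_1322 (Unigene1322), listed under primary bile acid biosynthesis, a route of sterol side-chain breakdown, had 6.31, 7.15 and 6.02 in trochophore larvae, against 11.87, 11.99 and 11.99 in eggs, and fell by 5.46 ± 0.24. The unnamed CUST_56843 and CUST_2229 fell by 5.69 and 5.61. Trochophore replicate 2 was the highest of the larval pools at 361 of the 538 graded probes that were at least 8-fold lower (67.1%), and CUST_2229 changed by -6.23 without it. The same pool was highest at 432 of the 889 called switched-off probes (48.6%). The part of this array's dim end in those folds was not tested.

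The switched-off probes had smaller bounds than the switched-on ones, the highest being 29.5-fold. CUST_40957 (Unigene40985) had 4.95, 5.65 and 4.54 in trochophore larvae, against 10.83, 10.99 and 10.94 in eggs, and was at least 29.5-fold lower. CUST_36453 (Unigene36475) had 5.78, 5.82 and 4.91 in trochophore larvae, against 10.86, 10.84 and 10.97 in eggs, at least 28.9-fold lower. CUST_25378 had 3.43, 5.52 and 3.89 in trochophore larvae, against 10.89, 10.68 and 10.58 in eggs, at least 25.6-fold lower. No larval pool came near an egg pool in any of them, and their later courses differed. CUST_36453 was back at 10.86 in D-shaped larvae and at 10.99 and 10.75 in the later stages. CUST_40957 stayed dim in D-shaped larvae (4.94) and was bright in umbonal larvae and juveniles (10.23 and 11.66). CUST_52114 and CUST_40933 were at least 25.3- and 23.8-fold lower in trochophore larvae.

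**Figure D2:**
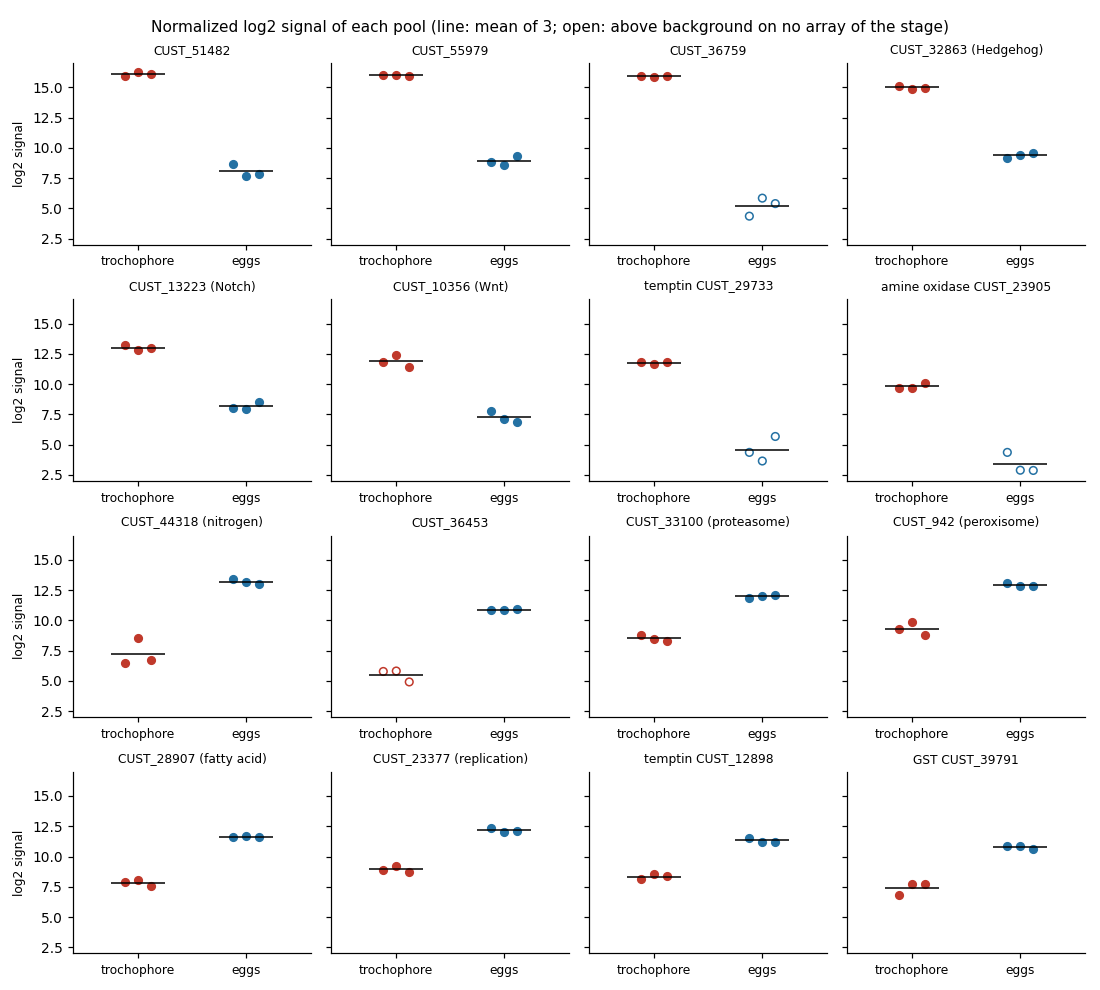
Normalized log2 signal of 16 probes in each trochophore pool (red, left) and each egg pool (blue, right), with a line at the mean of 3 pools and open points where no array of the stage was above background. The pools of the stages do not overlap for any of these probes, and CUST_44318 shows trochophore replicate 2 (8.52) above the other larval pools (6.45 and 6.73).

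The later arrays, which had no part in the classes, measured most of the switched-on probes too. Of the 3229 switched-on probes, 87.8% were above background on all 3 D-shaped arrays, 93.6% on all 3 umbonal arrays and 95.9% on all 3 juvenile arrays. On all 9 later arrays, 2719 of them (84.2%) were measured. The median of their mean signals was 8.09 in trochophore larvae, 8.04 in D-shaped larvae, 7.85 in umbonal larvae and 7.44 in juveniles, against 4.88 in eggs. Their mean signal was highest in the trochophore for 46.1% of them, in D-shaped larvae for 21.8%, in umbonal larvae for 18.6% and in juveniles for 13.6%. Of all probes on the array, 18.8% were highest in the trochophore and 35.7% in the egg. The egg was highest for 0% of switched-on probes, which the class rule largely sets, so the shares are not comparable.

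Switched-off probes were detected again in part, whereas their median signal stayed low. The median of their mean signals was 5.10 in trochophore larvae, 5.01 in D-shaped larvae, 5.13 in umbonal larvae and 5.15 in juveniles, against 8.12 in eggs. Of the 890 switched-off probes, 237 (26.6%) were above background on all 3 D-shaped arrays, 57.6% on all 3 umbonal arrays and 72.1% on all 3 juvenile arrays. The dimmest signal counted as above background was lower on most later arrays, between 4.17 and 5.74 in D-shaped larvae, 3.64 and 4.62 in umbonal larvae and 3.66 and 3.85 in juveniles, against 5.70 to 6.56 in trochophore larvae, and its part in the rising shares was not tested. A background to these shares is the 13594 probes dim on all 6 egg and trochophore arrays, of which 14.5%, 38.3% and 60.5% were above background on all 3 arrays of D-shaped larvae, umbonal larvae and juveniles. Over the whole array the shares were 52.7% in eggs, 60.4% in trochophore larvae, 69.3% in D-shaped larvae, 80.1% in umbonal larvae and 87.4% in juveniles. The egg remained the stage with the highest mean for 79.0% of the switched-off probes, and 45 of them (5.06%) were above background on no later array. The egg was highest of the 5 stages for 85.6% of the 7900 graded falls. No test was run on these shares, since the class rule sets the level of the egg and the trochophore.

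**Figure D3:**
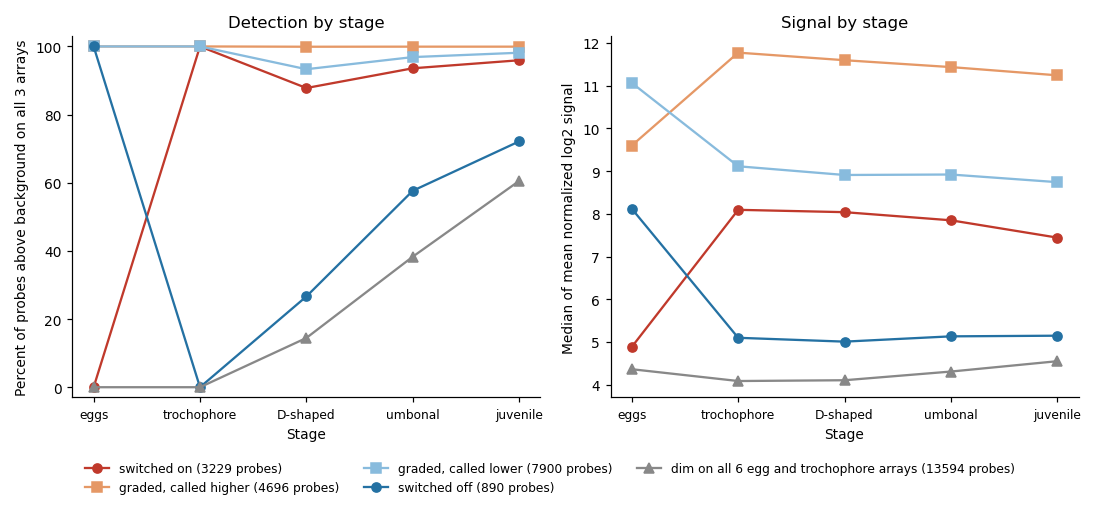
Percent of probes above background on all 3 arrays of a stage (left) and the median over probes of the mean normalized log2 signal (right), from fertilized eggs to juveniles, for the detection classes of trochophore larvae against eggs. Switched-on probes stay measured (87.8% in D-shaped larvae, 95.9% in juveniles), and the share of switched-off probes above background is 26.6% and 72.1% in the same stages, while their median signal stays near 5.

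The unigenes were grouped by the pathway and compartment terms that the supplementary lists of the study give to probes, of which at most 17 probes per term and comparison could be read. Across 59 lists, 890 of 1162 named probes were tested, 193 rose and 380 fell, and their median change was -0.78, against -0.07 over all tested probes. Probes listed at the egg to trochophore step, or at the step to D-shaped larvae, were chosen by the study as changed on arrays used here, so their counts are no independent evidence of direction. For terms that were also listed at later steps of development, the members named there are counted separately, since that choice used neither an egg nor a trochophore array. All shares under quantile normalization are to be read against 26.0% of tested probes called higher and 27.1% called lower. List counts under spike-in scaling are to be read against 14460 higher and 7424 lower over all tested probes (median 0.42). With arrays shifted to a common 75th percentile (the 75th-percentile shift), all tested probes gave 11585 higher and 10845 lower (median -0.05). A member dim in 1 stage passed the filter only through the stage in which it was bright. Of the 642 members above background on all 6 arrays, 369 were called, 74 higher and 295 lower, against 12595 (44.3%) of all 28423 such probes, 4695 (16.5%) higher and 7900 (27.8%) lower, and counts on all 6 arrays are given where they change the picture of a list.

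Most of the KEGG proteasome list fell. The proteasome is the barrel-shaped protease that degrades ubiquitin-tagged proteins. Of 31 tested members, 0 rose and 26 fell, with a median change of -1.57, and among the 16 tested members named at later steps 0 rose and 13 fell, with a median of -1.66. The shorter GO list of the proteasome complex had 0 higher and 3 lower of 8 tested (median -0.83), and 0 higher and 1 lower of the 4 named at later steps. CUST_33100 (Unigene33121) had 8.75, 8.47 and 8.32 in trochophore larvae, against 11.83, 12.00 and 12.10 in eggs, and fell by 3.47 ± 0.26 (SE). CUST_32677 (Unigene32698) had 8.69, 8.89 and 8.76 in trochophore larvae, against 11.68, 11.71 and 11.92 in eggs, and fell by 2.99. Neither overlapped between stages, and both were again higher in umbonal larvae, with means of 11.24 and 11.61. CUST_28887 fell by 2.79 and remained low, with means of 6.21, 3.85 and 3.62 in D-shaped larvae, umbonal larvae and juveniles.

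Ubiquitin mediated proteolysis, the tagging step before the proteasome, was less uniform, with 6 members higher and 11 lower of 20 tested. Without trochophore replicate 2, 11 of its members were called higher, as with no filter on dim probes. With an array left out, a probe needs fewer arrays to be tested, so that count is not over the same 20. RNA degradation, which covers deadenylation, decapping and the exosome, had 4 higher and 16 lower of 28 (median -1.23). CUST_13143, of that list, had 7.76, 8.49 and 8.75 in trochophore larvae, against 10.83, 10.68 and 10.64 in eggs, and fell by 2.38. The lysosome list, acid hydrolases and their membrane proteins, had 2 higher and 12 lower of 19 (median -1.58), and 0 higher and 7 lower of 8 among members named at later steps. Under the looser filter without trochophore replicate 2, 5 members of the lysosome list were called higher, as with no filter on dim probes. CUST_2204 (Unigene2205), also listed under fatty acid elongation in mitochondria, had 8.97, 10.01 and 9.30 in trochophore larvae, against 13.57, 13.34 and 13.46 in eggs, and fell by 4.03 ± 0.23.

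Peroxisome, fatty acid and mitochondrial lists leaned lower. Peroxisomes and mitochondria oxidise fatty acids, the main fuel stored in a bivalve egg besides protein. Of 22 tested peroxisome probes, 2 rose and 16 fell (median -2.01), and of the 13 named at later steps 1 rose and 10 fell (median -2.69). Fatty acid metabolism had 1 higher and 22 lower of 35 (median -1.41), and 1 higher and 8 lower of the 14 named at later steps. The mitochondrial inner membrane list had 2 higher and 13 lower of 23 (median -1.39), and 1 higher and 6 lower of the 10 named at later steps.

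CUST_942 (Unigene942), a peroxisome probe that is also listed under primary bile acid biosynthesis and unsaturated fatty acids, had 9.24, 9.84 and 8.77 in trochophore larvae, against 13.11, 12.83 and 12.84 in eggs, and fell by 3.64 ± 0.22. CUST_28907 (Unigene28927), of fatty acid metabolism, had 7.90, 8.06 and 7.57 in trochophore larvae, against 11.57, 11.68 and 11.65 in eggs, and fell by 3.79 ± 0.16. CUST_16813 (Unigene16821), listed under fatty acid metabolism and PPAR signalling, had 8.83, 9.06 and 8.86 in trochophore larvae, against 12.46, 12.72 and 12.69 in eggs, and fell by 3.71 ± 0.23. The pools within a stage were tight in all of these, and the later courses were not alike. CUST_28907 was already back at 11.72 in D-shaped larvae and at 12.32 in juveniles, whereas CUST_16813 stayed at 7.01 in D-shaped larvae and 7.83 in juveniles. CUST_16548 (Unigene16556), of the inner membrane list and of porphyrin metabolism, the route to haem, had 7.60, 7.38 and 7.29 in trochophore larvae, against 11.19, 11.29 and 11.43 in eggs.

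Glycolysis and gluconeogenesis, the central route between glucose and pyruvate, had 5 higher and 13 lower of 30 tested, of which 7 were switched off. On all 6 arrays 3 rose and 4 fell of 19. The graded fall of CUST_28852 in that list was 3.64, and the graded rises of CUST_41407 and CUST_31471 were 1.70 and 1.65. Oxidative phosphorylation had 5 higher and 7 lower of 25 (median -0.48), or 20.0% and 28.0%, near the shares of all tested probes. Under the 75th-percentile shift 8 rose and 12 fell.

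The lists of DNA copying and repair also leaned lower. Cleavage divides the egg rapidly with little growth, and eggs are stocked with replication and repair proteins. DNA replication had 2 higher and 17 lower of 25 tested, homologous recombination 0 higher and 14 lower of 19, and mismatch repair 4 higher and 16 lower of 27. These KEGG lists had 0 members named at later steps, so all of their members were chosen as changed on egg or trochophore arrays. The MCM complex, the helicase that opens replication origins, had 0 higher and 7 lower of 8, and 0 higher and 3 lower of the 4 named at later steps. Under the 75th-percentile shift, under spike-in scaling and in the authors' values, 1 MCM probe was called higher and 6 lower. CUST_23377 (Unigene23392), listed under replication and 4 repair pathways, had 8.88, 9.21 and 8.70 in trochophore larvae, against 12.32, 12.05 and 12.14 in eggs, and fell by 3.24 ± 0.24. CUST_5753, of the MCM complex, had 8.83, 8.98 and 8.91 in trochophore larvae, against 11.29, 11.13 and 11.23 in eggs, and fell by 2.31 ± 0.12.

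CUST_211, of mismatch repair, had a wider spread in the larvae, with 8.10, 6.98 and 8.92 in trochophore pools, against 12.55, 12.40 and 11.82 in egg pools, and fell by 4.26 ± 0.40. Not every chromosome-linked probe followed. CUST_20171, of the chromatin and chromosome lists, had 13.67, 13.31 and 13.41 in trochophore larvae, against 10.98, 11.09 and 11.33 in eggs, and rose by 2.33 ± 0.17. CUST_24673, of the same lists, had 11.11, 11.16 and 11.20 in trochophore larvae, against 7.79, 9.24 and 9.32 in eggs, with egg replicate 1 the lowest, and rose by 2.38. Among chromatin probes named at later steps 2 rose and 0 fell of 5, whereas the whole list had 2 higher and 9 lower of 19. The chromosome list had 5 higher and 12 lower of 33, but 4 higher and 3 lower of the 17 named at later steps (median 0.05).

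Most lists of RNA and protein synthesis leaned lower, some only slightly. The KEGG lists among them had 0 members named at later steps. Aminoacyl-tRNA biosynthesis, the charging of tRNAs, had 3 higher and 13 lower of 30, the spliceosomal complex 2 higher and 9 lower of 18, and KEGG RNA polymerase 4 higher and 11 lower of 22. Under spike-in scaling the RNA polymerase list was even, with 7 higher and 7 lower. The KEGG spliceosome had 6 higher and 9 lower of 29 (median -0.54). The KEGG ribosome had 2 higher and 3 lower of 14, with 11 lower under the 75th-percentile shift. Single probes ran against these lists. CUST_50843 (Unigene50882), of RNA polymerase, had 12.09, 11.71 and 11.73 in trochophore larvae, against 8.67, 8.40 and 8.74 in eggs, and rose by 3.24 ± 0.18. CUST_12998 (Unigene13006), of the spliceosome, had 13.21, 13.62 and 13.53 in trochophore larvae, against 10.65, 10.16 and 10.12 in eggs, and rose by 3.15 ± 0.20. The transcription factor complex had 8 higher and 4 lower of 22 tested (median 0.61), and 5 higher and 0 lower of the 12 named at later steps, but 1 higher and 3 lower of the 14 above background on all 6 arrays. Its graded members moved both ways, as CUST_56227 rose by 1.78 and CUST_6881 fell by 2.95.

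Signalling lists held the largest graded rises among the list members named here. Hedgehog, Wnt, Notch and TGF-beta ligands and receptors carry signals between embryonic cells and set axes and cell fates in animals. The Hedgehog list had 9 higher and 5 lower of 17 tested (median 1.48), dorso-ventral axis formation 10 higher and 4 lower of 17 (median 1.33), and TGF-beta 11 higher and 6 lower of 23 (median 0.97). Many of the higher members were dim in eggs. On all 6 arrays, Hedgehog had 3 higher and 4 lower of 10 (median -0.26), TGF-beta 2 higher and 6 lower of 13 (median -0.68) and dorso-ventral axis formation 6 higher and 4 lower of 12, so the lean of the first pair of lists turned. Calcium signalling, which relays receptor activity through calcium ions, had 11 higher and 4 lower of 16 (median 1.86), and 7 of its 16 members were switched on, with 2 higher and 1 lower of the 4 measured on all 6 arrays. Without egg replicate 1, which loosens the filter, 7 calcium signalling members were called lower, as with no filter on dim probes. Of these 4 lists, only Hedgehog had members named at later steps, 2 higher and 1 lower of 4 tested.

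CUST_32863 (Unigene32884), of the Hedgehog list, had 15.09, 14.90 and 14.97 in trochophore larvae, against 9.12, 9.41 and 9.60 in eggs. It rose by 5.61 ± 0.16 (limma's adjusted p of 1.6e-11), and its signal was 13.15, 12.10 and 11.73 in D-shaped larvae, umbonal larvae and juveniles. CUST_10356 (Unigene10364), listed under Wnt, Hedgehog and the extracellular region, had 11.84, 12.43 and 11.41 in trochophore larvae, against 7.82, 7.15 and 6.84 in eggs, and rose by 4.62 ± 0.36. CUST_17913 (Unigene17923), listed under Wnt and Hedgehog, had 13.29, 12.83 and 12.92 in trochophore larvae, against 8.69, 8.66 and 8.95 in eggs, and rose by 4.24 ± 0.21. All 3 were more than 16-fold higher in the larvae by their means, and none of their pools overlapped.

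The Wnt list as a whole was split, with 11 higher and 9 lower of 27, a median of -0.19 under quantile normalization and 0.46 under spike-in scaling. CUST_17538, of the Wnt list, had 7.02, 6.96 and 6.83 in trochophore larvae, against 10.81, 10.76 and 10.95 in eggs, and fell by 3.90. Notch ran the other way as a list, with 5 higher and 13 lower of 23 (median -1.58). Its member CUST_13223 (Unigene13231) was an exception, with 13.27, 12.82 and 12.95 in trochophore larvae, against 8.05, 7.96 and 8.51 in eggs, a rise of 4.84 ± 0.21. MAPK signalling, a kinase cascade downstream of many receptors, had 6 higher and 12 lower of 23.

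Smad proteins carry the TGF-beta signal to the nucleus, and the study named a probe for each of 3 of them. Pf-smad4, the partner shared by the other Smads, had 8.96, 8.58 and 8.93 in trochophore larvae, against 7.48, 7.23 and 7.53 in eggs, and rose by 1.41 ± 0.30 (limma's adjusted p of 0.00091). Pf-smad3 had 4.87, 6.02 and 6.24 in trochophore larvae, with 1 array above background, against 8.89, 8.35 and 7.97 in eggs, and fell by 2.69 ± 0.37. Pf-smad5 had 7.98, 8.32 and 8.26 in trochophore larvae, against 8.20, 7.64 and 7.42 in eggs. Its pools overlapped and its change of 0.44 had an adjusted p of 0.11, but it was called at 1.04 and 1.51 under the 75th-percentile shift and the spike-in scaling.

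Matrix and secretion lists were measured only in part. Of 28 extracellular matrix probes only 8 were tested, of which 6 rose and 1 fell, and just 1 of the 8, which rose, was above background on all 6 arrays. ECM-receptor interaction had 7 higher and 4 lower of 23, and 12 higher under the 75th-percentile shift and under spike-in scaling. On all 6 arrays that list had 1 higher and 2 lower of 13. The extracellular region had 9 higher and 9 lower of 21, but 11 higher and 3 lower under spike-in scaling and 3 higher and 5 lower of 10 on all 6 arrays. CUST_22921, of the extracellular matrix, had 11.01, 10.87 and 10.55 in trochophore larvae, against 9.35, 9.08 and 9.50 in eggs, and rose 2.83-fold (limma's adjusted p of 5.0e-05). Its mean was higher still in D-shaped larvae, at 12.73.

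Lists taken as markers of the stages were mixed. Oocyte meiosis had 6 higher and 8 lower of 23 tested (median -0.34), and progesterone-mediated oocyte maturation 5 higher and 9 lower of 24. The cilium list, the swimming organelle of the trochophore, had 7 higher and 8 lower of 26, with a median of 0.02 and 0 probes switched on. Under spike-in scaling the cilium list had 12 higher and 7 lower (median 0.91, against 0.42 over all tested probes). The 75th-percentile shift gave it 9 higher and 8 lower. The axoneme list, the microtubule core of a cilium, had 3 higher and 5 lower of 15, with a median of 0.08 under quantile normalization and -0.28 under the 75th-percentile shift. Under spike-in scaling it had 6 higher and 5 lower, with a median of 0.20. Axonemal dynein, the motor of that core, had 3 higher and 3 lower of 9. Of the 31 cilium probes named, 5 were not tested.

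Single probes of those lists moved strongly. CUST_26220 (Unigene26237), of oocyte maturation and p53 signalling, had 13.20, 13.46 and 13.06 in trochophore larvae, against 15.67, 15.70 and 15.63 in eggs, and fell by 2.43 ± 0.25. Its mean was 7.05 in D-shaped larvae and 5.59 in juveniles. CUST_10018 (Unigene10026), of axonemal dynein, had 7.45, 7.58 and 7.19 in trochophore larvae, against 10.33, 9.80 and 9.70 in eggs, and fell by 2.54. Muscle lists had few tested members, the sarcomere 3 higher and 2 lower of 8 and contractile fibers 4 higher and 3 lower of 11. The contractile fiber probe CUST_9131 had 8.37, 8.77 and 8.57 in trochophore larvae, against 12.14, 12.28 and 12.47 in eggs, and fell by 3.73, with a mean of 12.04 in D-shaped larvae.

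**Figure D4:**
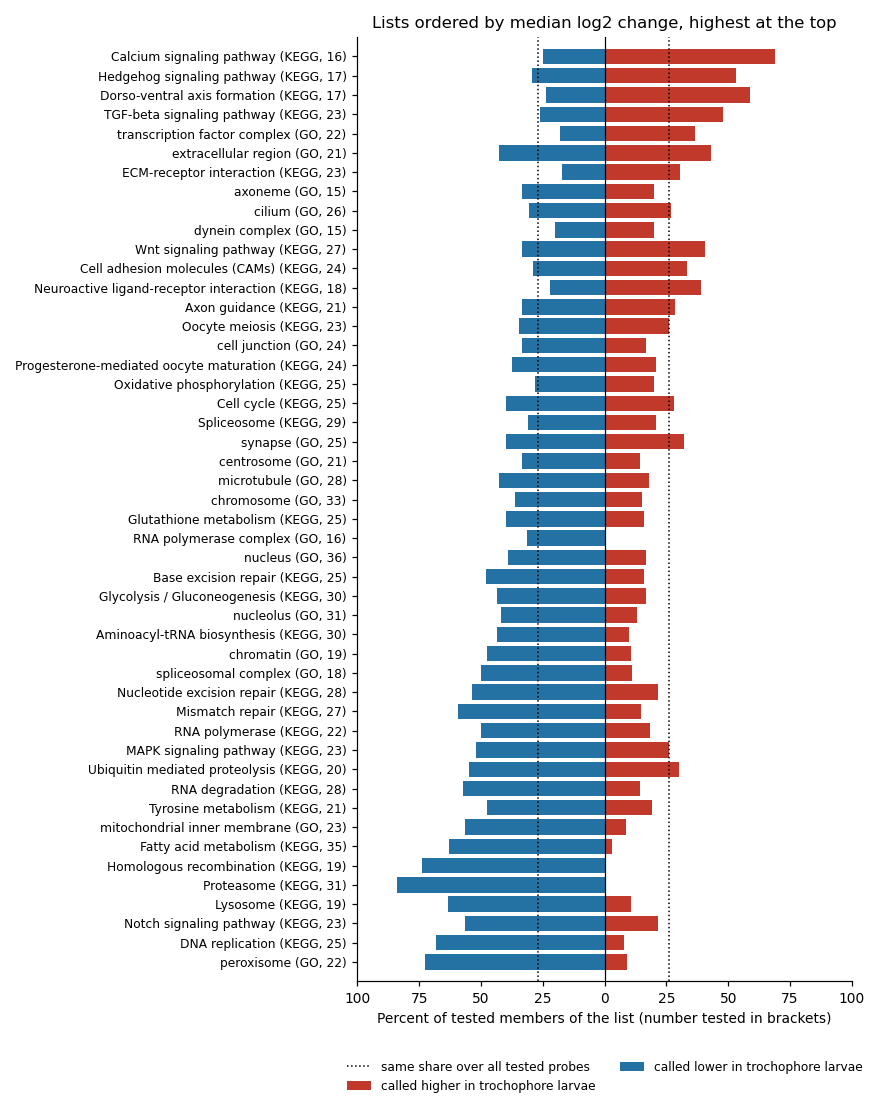
Percent of tested members called higher (red, right) and lower (blue, left) in trochophore larvae than in eggs, with the number tested in brackets. Lists with at least 15 tested members are drawn, ordered by median log2 change. Dotted lines mark the shares over all tested probes (26.0% higher, 27.1% lower). Calcium and Hedgehog signalling lead at the top, and the proteasome (26 of 31 lower), DNA replication and peroxisome lists stand near the bottom. The order includes members dim in 1 stage. On all 6 arrays Hedgehog had 3 higher and 4 lower of 10, and calcium signalling only 4 members.

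Most probes for known shell proteins were dim or little changed at this step. Of 30 probes in the study's biomineralization table, 11 were above background on none of the 6 arrays, 14 were tested, 3 rose and 1 fell. These are 21.4% higher and 7.1% lower, against 26.0% and 27.1% of all tested probes. Shematrin-7, a glycine-rich protein of the shell framework, had 10.70, 10.06 and 10.70 in trochophore larvae, against 8.53, 8.99 and 9.36 in eggs, and rose by 1.53 ± 0.26 (limma's adjusted p of 0.00015). Its mean in juveniles was 14.26. PFMG3, a mantle gene product, was switched on, with 6.54, 6.78 and 6.95 in trochophore larvae, against 4.36, 4.92 and 4.64 in eggs, but only at least 1.05-fold higher by its bound. PFMG8 had 6.66, 7.03 and 6.67 in trochophore larvae, against 8.67, 8.51 and 8.44 in eggs, and fell by 1.76 ± 0.29, a call lost under spike-in scaling (-0.84).

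Tyrosinase oxidises tyrosine and takes part in hardening the outer shell layer. The tyrosinase probe CUST_54654 had 7.33, 6.71 and 7.50 in trochophore larvae, against 4.36, 4.98 and 7.31 in eggs, so its pools overlapped. Its rise of 1.63 ± 0.55 (limma's adjusted p of 0.016) was not a firm call. With the slide row as a block, which leaves trochophore replicate 1 alone against the eggs, the change was 1.78. The call was lost with only the 6 arrays in the fit (limma's adjusted p of 0.10) and with normexp (0.84). It was also lost without egg replicate 1 (1.03), without egg replicate 2 (1.34) and without trochophore replicate 3 (1.47). A second tyrosinase, CUST_35887, had 7.10, 7.89 and 7.86 in trochophore larvae, against 4.36, 4.47 and 6.35 in eggs, at least 1.77-fold higher by its bound. Both were close to background here and reached 14.47 and 14.63 in juveniles.

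Chitin synthase builds the chitin scaffold of the shell. The study names 4 probes for it, of which 2 were tested. CUST_24765 had 7.32, 6.91 and 6.13 in trochophore larvae, against 6.10, 5.74 and 6.20 in eggs, where no array was above background. CUST_58227 had 8.73, 7.85 and 7.94 in trochophore larvae, against 6.96, 6.68 and 7.92 in eggs. In both, the lowest trochophore pool lay within the egg range, and fitted changes of 0.78 and 0.98 stayed under 2-fold, the first with a bound of at least 1.04-fold. Both calls depended on the setting. With the slide row as a block, which leaves trochophore replicate 1 alone against the eggs, the changes were 1.31 and 1.54. Both probes were called under the 75th-percentile shift and in the authors' values, at 1.76 and 1.71. They were also called under spike-in scaling, at 2.23 and 2.18, and without trochophore replicate 3, at 1.11 and 1.10. CUST_58227 was also called without trochophore replicate 2 (1.15) and without egg replicate 3 (1.35). In D-shaped larvae, the stage with the first full shell, the means of CUST_24765 and CUST_58227 were 13.06 and 14.59. The other 2 probes were not tested in the main fit. With no filter on dim probes they were called in opposite directions, CUST_39082 at -1.39 and CUST_56685 at 1.29. CUST_56685 was also called without trochophore replicate 2 (1.46).

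Other shell probes were not called under quantile normalization. N151 had 15.16, 14.69 and 15.15 in trochophore larvae, against 15.15, 15.71 and 15.76 in eggs, and was called only on a 75th-percentile scale (-1.04 under that shift and in the authors' values). The ferritin-like protein, a store of iron, had 13.32, 14.22 and 14.15 in trochophore larvae, against 13.90, 13.55 and 13.23 in eggs. Nacrein, a carbonic anhydrase of the nacre, had 7.36, 7.09 and 6.37 in trochophore larvae, against 7.23, 6.91 and 6.88 in eggs. The pools of all 3 overlapped. The sign of nacrein depended on the scaling, with a change of -0.07 (adjusted p of 0.86) under quantile normalization and of 1.10, which was called, under spike-in scaling. PFMG2 (CUST_40154) changed by -0.84 ± 0.15 (SE) and was called, at -1.29, under the 75th-percentile shift and in the authors' values.

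Of the 5 candidate shell genes of the study, 3 were above background on no egg or trochophore array. Unigene56675 had 9.62, 9.08 and 9.09 in trochophore larvae, against 6.27, 6.68 and 7.69 in eggs, and rose by 2.38 ± 0.29. Unigene18749 had 6.95, 7.16 and 6.48 in trochophore larvae, against 8.57, 8.32 and 8.27 in eggs, and fell by 1.52 ± 0.18, a call lost under spike-in scaling (-0.58) and with normexp (-0.99). The lysine-rich matrix protein KRMP-7 had 7.59, 7.22 and 7.65 in trochophore larvae, against 9.59, 9.67 and 10.12 in eggs, and fell by 2.31. Its mean was 5.36 in D-shaped larvae and 15.25 in juveniles.

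The study's table of tyrosine metabolism, the route to quinones and melanin, held larger changes. Its 26 probes were chosen by the study as changed at every step from the trochophore to the juvenile, a choice that used the trochophore arrays, so its counts are no independent evidence of direction. Of these probes, 19 were tested, 5 rose (26.3%) and 12 fell (63.2%), against 26.0% and 27.1% of all tested probes. Temptin, a protein known from the water-borne pheromone complex of the sea hare Aplysia, had 3 probes that did not move together. CUST_29733 was switched on, with 11.79, 11.62 and 11.79 in trochophore larvae, against 4.36, 3.65 and 5.68 in eggs, at least 33.0-fold higher. CUST_12898 had 8.14, 8.54 and 8.37 in trochophore larvae, against 11.57, 11.20 and 11.24 in eggs, and fell by 2.98 ± 0.19. CUST_22403 had 7.13, 6.87 and 7.06 in trochophore larvae, against 8.35, 8.71 and 8.83 in eggs, and fell by 1.61, a call lost under spike-in scaling (-0.72).

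Copper amine oxidases convert amines to aldehydes. The semicarbazide-sensitive amine oxidase probe CUST_23905 was switched on, with 9.72, 9.68 and 10.05 in trochophore larvae, against 4.36, 2.89 and 2.87 in eggs, at least 8.73-fold higher. Its means in D-shaped larvae, umbonal larvae and juveniles were 4.61, 5.76 and 6.82, so the trochophore was its 1 bright stage. The related CUST_18929, matched to amiloride binding protein 1, had 10.57, 10.37 and 10.43 in trochophore larvae, against 4.36, 5.77 and 6.35 in eggs, with 1 egg array above background, and rose by 4.97 ± 0.36. Xanthine dehydrogenase, which breaks down purines, had 5.56, 5.34 and 5.77 in trochophore larvae, with 1 array above background, against 9.51, 9.57 and 9.07 in eggs, and fell by 3.83 ± 0.29.

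Glutathione S-transferases attach glutathione to reactive compounds, and 10 probes of the same table match them. Of these, 8 were tested, 0 rose and 6 fell, in a table chosen on arrays used here. CUST_39791 had 6.82, 7.70 and 7.70 in trochophore larvae, against 10.86, 10.89 and 10.62 in eggs, and fell by 3.38 ± 0.26. The microsomal enzyme, CUST_56433, was switched off, with 5.15, 5.09 and 4.80 in trochophore larvae, against 8.61, 8.12 and 8.20 in eggs, at least 4.84-fold lower. The other called members were CUST_54455 (fell by 2.89), CUST_11562 (fell by 2.22), CUST_53080 (fell by 2.17) and CUST_28047 (fell by 1.46, lost under the 75th-percentile shift at -0.90, under spike-in scaling at -0.43 and with normexp at -0.99). The sigma class probe CUST_25915 had 9.49, 9.41 and 9.43 in trochophore larvae, against 10.36, 10.41 and 10.52 in eggs, just under 2-fold at -0.98, and was called without trochophore replicate 1 (-1.01) or egg replicate 1 (-1.02). The broader KEGG glutathione list was less one-sided, with 4 higher and 10 lower of 25 tested.

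**Figure D5:**
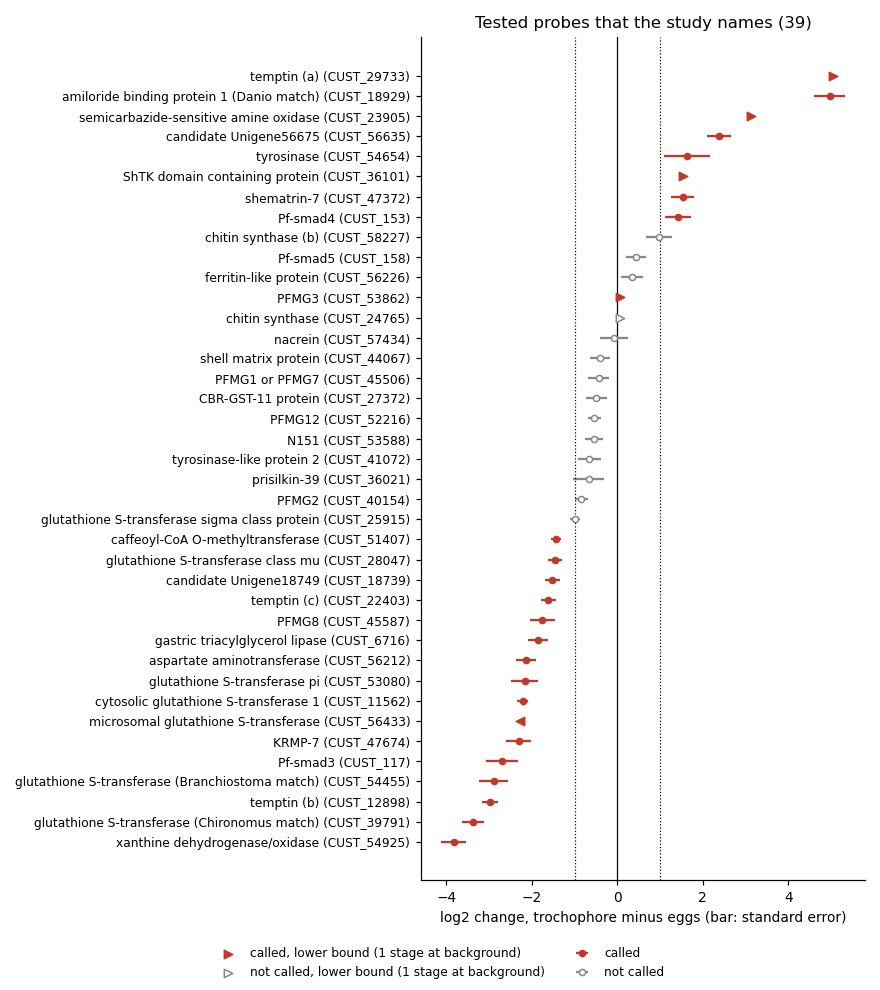
Log2 change, trochophore larvae minus fertilized eggs, with its standard error from limma over 15 arrays, for the 39 tested probes that the study names; filled points were called and open points were not, triangles mark lower bounds of switched probes, drawn with no error, and dotted lines mark 2-fold. Of these probes 9 were called higher and 16 lower, with temptin CUST_29733 (a bound of 5.04) at the top and xanthine dehydrogenase CUST_54925 (-3.83, with 1 trochophore array above background) at the bottom.

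Probes that the study lists as raised in juveniles, a choice made without egg or trochophore arrays, carry some of the few protein matches. Of 281 such probes with a match, 156 were above background on none of the 6 arrays, 56 were tested, 20 rose and 17 fell. These are 35.7% higher and 30.4% lower, against 26.0% and 27.1% of all tested probes. The probe matched to a polyubiquitin, a chain of fused ubiquitin units, was CUST_29919 and rose the most. It had 13.04, 12.93 and 12.98 in trochophore larvae, against 4.36, 3.94 and 5.36 in eggs, at least 78.6-fold higher. Its mean was 9.20 in D-shaped larvae and 2.96 in umbonal larvae. CUST_37493, matched to a tumor endothelial marker, had 11.42, 10.91 and 10.95 in trochophore larvae, against 4.36, 2.80 and 6.31 in eggs, and rose by 6.61 ± 0.59. Its egg pools were spread widely, and the change was 5.76 without egg replicate 2 and 7.52 without egg replicate 3.

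Further rises were dim in eggs. The calmodulin probe CUST_16543, a calcium sensor, had 7.40, 8.48 and 8.42 in trochophore larvae, against 4.36, 5.08 and 4.77 in eggs, at least 2.66-fold higher. CUST_35025, matched to a tissue inhibitor of metalloproteinases, averaged 8.75 ± 0.61 in trochophore larvae and 5.72 ± 1.32 in eggs (SD, n = 3 each), with 1 egg array above background, and rose by 3.02 ± 0.48 (2.34 without egg replicate 1). Among collagen matches, 21 probes in all, 5 were tested, 2 rose and 0 fell, too few to set against the shares of all tested probes.

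Falls in the same set were of probes dim in trochophore larvae. CUST_32308, matched to cerebellin-3, a secreted C1q-type protein, was switched off, with 3.37, 3.64 and 3.99 in trochophore larvae, against 8.43, 7.61 and 7.99 in eggs, at least 3.93-fold lower. CUST_10236, matched to a MAM domain protein, had 5.19, 4.73 and 5.60 in trochophore larvae, against 8.37, 8.35 and 8.14 in eggs, at least 4.74-fold lower. The follistatin-like CUST_48769 had 5.90, 6.72 and 6.49 in trochophore larvae, against 9.26, 9.27 and 9.48 in eggs, and fell by 2.97 ± 0.21. The papilin match CUST_32937, an extracellular matrix protein in flies, had 6.70, 6.52 and 6.45 in trochophore larvae, against 9.22, 9.41 and 9.51 in eggs, and fell by 2.82 ± 0.20. Both of these reached their highest stage mean in juveniles, at 13.76 and 13.92.

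The 300 probes designed from GenBank sequences of the species, of which only the Smads are named here, leaned the other way from the lists. Of 201 tested, 71 rose and 36 fell (35.3% and 17.9%), with a median change of 0.35. Only 8 were switched on and 2 switched off, and 139 were graded.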

How the data were processed

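RNA of 15 pools was labelled with Cy3 and hybridised to one-colour arrays, and the 6 arrays of trochophore larvae and fertilized eggs decide the comparison. Per the file headers, the intensity values were made by Agilent Feature Extraction, which subtracted background and detrended each array before the authors deposited them. The deposited log2 table of the authors, which holds the unigene probes, was used as an alternative only.

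Without control and outlier spots, the spots of a probe were averaged and signals quantile-normalized over 58883 probes, floored at 1 and log2-transformed. A model with a mean for each of 5 stages was fitted over 15 arrays by limma 3.58.1 (R 4.3.3), and p was adjusted by Benjamini-Hochberg over the 38150 tested probes. Tables were made with Python 3.11.15, numpy 2.4.6 and pandas 2.3.3. On simulated data for this comparison with 38150 probes, 86 of 100 changes of 1.5 (log2) and 93 of 100 changes of 3 were called, with 2 false calls. There all other probes had no difference and the noise of each array was drawn independently. In the data 53.1% of tested probes were called, so these rates do not carry over to the calls given here. The labels call the pools biological replicates but do not say whether they came from separate spawns, so p-values measure the spread between these pools.

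A fold of a switched probe is the bright stage's mean over the dim stage's, with each dim array at the higher of its own signal and the lowest signal well above background. Named probes were the 5 largest graded rises and falls, the 5 highest bounds each way, up to 3 called members of each list, the probes the study names, and the largest rises and falls with a protein match. Members and lists were chosen with earlier results of these data known, and a few probes named for running against their list were picked after their values were seen. Replicate numbers do not pair the arrays (r of same-numbered deviations between -0.27 and -0.01). Alternatives were another normalization, spike-in scaling, the authors' values, normexp (offset of 50, on the median signal), other filters and thresholds, other arrays in the fit, blocks, bounds and each array left out. The number of arrays limits the precision. No probe sequences were used here, and enrichment was not tested.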

Additional observations from a re-analysis of the deposited data

How the results depend on the processing

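The 20251 calls became 12595 when only probes above background on all 6 arrays were tested and 10027 at a 4-fold threshold, against 17855 to 26308 under the other alternatives. Calls higher were 4695 and 5678 under those 2 settings, and calls lower 4349 at 4-fold. Switched-on calls were 2024 by bounds and 3083 to 3942 with 1 array left out, and switched-off calls 904 to 1586. Graded rises were 7738 with spike-in scaling, where graded falls were 5734, so the lean of the graded probes turned. At 4-fold, graded rises were 1749 and graded falls 2683. List members called (573, of which 193 higher and 380 lower) were 369 on all 6 arrays and 296 at 4-fold, of which 74 and 112 were higher, and 184 lower at 4-fold. Probes named by the study (25 called) gave 38 calls with no filter, 12 on all 6 arrays and 16 at 4-fold. Among the probes named here, Nacrein (CUST_57434), not called before, was called with the other sign at 1.10 with spike-in scaling. Over the 20251 calls, 27 had the other sign with spike-in scaling, of which 0 were called. Switched classes were not computed for the filter on all 6 arrays or within the slide row. The filter on all 6 arrays tests fewer probes and 4-fold is a higher threshold by construction, and the cause of the other shifts was not tested.

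With the replicate number as a block, 20210 probes were called, 20204 of them among the 20251 with the same direction, and no call of the 195 named called probes was lost. With the slide as a block, 20290 were called, and with the slide row as a block, an alternative chosen after seeing the data, 20421, with 4 of the 195 named calls lost. With 1 array left out the calls were 20236 to 21261. Dim signal on egg replicate 1 and trochophore replicate 2 limits the folds of switched probes.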
